A study of Mus musculus with 6 samples.

Results

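The 9 genes *Slc1a2*, *Slc1a3*, *Glul*, *Gja1*, *Gjb6*, *Aqp4*, *Kcnj10*, *Atp1b2* and *Slc4a4* encode transporters, channels, junction proteins and, for *Glul*, an enzyme, with which astrocytes clear and share small molecules. They were chosen by name, for glutamate uptake, gap junctions, water and potassium channels and the ion transport that goes with them, and all 9 were found among the 32493 genes counted. RNA-seq had been run on cultured neural stem cells (NSCs) taken at E14.5 from the lateral ventricles of mouse embryos on a C57BL/6J background and grown for 3 generations in DMEM/F12 with B27, EGF and bFGF. All embryos carried miR-151 alleles flanked by *loxP* sites. The cko embryos also carried Emx1-IRES-Cre, which is active in the dorsal telencephalon. The ctrl embryos, described in the study as littermates, lacked Cre and are called wild type in the sample labels. The sources used here do not say whether a library came from 1 embryo or from several.

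Astrocytes take up glutamate released by neurons, convert it to glutamine and pass ions and metabolites to their neighbours through gap junctions. Water and potassium channels at their endfeet, the processes that touch blood vessels, work beside a sodium pump that supplies the gradient for uptake. Several of these genes, *Slc1a3* above all, are already on in radial glia, the stem cells of the embryonic cortex, whereas others, such as *Gjb6* and *Aqp4*, are known as markers of later astrocytes.

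The question was whether these genes differed between cko and ctrl NSCs. By edgeR's quasi-likelihood test, 7 of the 9 genes had an adjusted p under 0.05 (Benjamini-Hochberg over the 16710 genes tested) and a lower level in cko. None was higher, with 0 at an unadjusted p under 0.05 in edgeR and 0 in DESeq2. The genes that fell were those of glutamate handling (*Slc1a2*, *Slc1a3*, *Glul*), both connexins (*Gja1*, *Gjb6*), the sodium pump subunit *Atp1b2* and the bicarbonate transporter *Slc4a4*. The water channel *Aqp4* had a mean of 38.0 against 76.4 CPM without passing the test, and the potassium channel *Kcnj10* was at 145 against 131 CPM. Of all genes tested, 8.57% were lower and 7.86% higher by the same call. The median log2 fold change was -1.02 over the 9 genes and 0.00 over all genes tested. All 9 genes passed the filter on low counts.

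Of 6 deposited columns, 5 were used as libraries, ctrl 1 and 3 and cko 1, 2 and 3. In the column of ctrl replicate 2, the value of each of the 32493 genes was the average of ctrl 1 and ctrl 3 after rounding up, so it entered no n. The 5 libraries held 17883796 to 23335736 counts. Levels are given in CPM, each library's counts scaled to a common total and corrected by TMM factors, with the SD over 2 ctrl and 3 cko libraries. As nothing ties the libraries to separate cultures or animals, the p-values measure only the spread between these libraries, which may be technical. *Mir151* is not among the genes counted, so the deletion could not be checked here. Libraries of a genotype differed beyond sampling noise, least between cko 2 and cko 3, with a chi-square of 4.07 per gene against 10.4 and 10.9 for cko 1 with either and 32.1 between the ctrl libraries. *Xist* and the Y-linked genes were counted in all 5 libraries. *Xist* stood at 2557 and 2889 CPM in ctrl and 787 to 894 CPM in cko libraries, and 4 Y-linked genes summed to 94.7 and 116 against 230.5 to 256 CPM, so the sex make-up of the cultures and the genotype cannot be told apart.

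**Figure D1:**
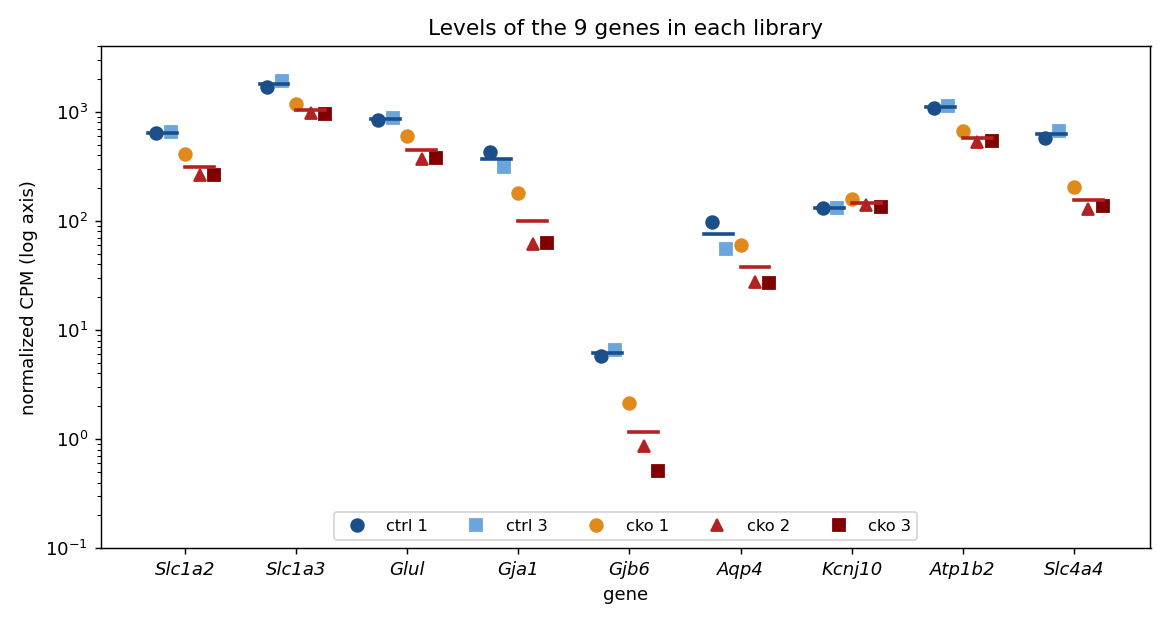
Normalized CPM of each of the 9 genes (log axis) in ctrl libraries 1 and 3 and cko libraries 1, 2 and 3, with horizontal bars at the mean of each genotype. The cko points lie below the ctrl points in 7 genes, overlap them in *Aqp4* and lie above them in *Kcnj10*.

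*Slc1a3* and *Slc1a2* encode the sodium-driven glutamate transporters of glia. *Slc1a3* (ENSMUSG00000005360, chromosome 15, 8634124 to 8710764, minus strand, GRCm38) was counted at 1666 and 1898 CPM in ctrl libraries 1 and 3 and at 1178, 969 and 943 CPM in cko libraries 1, 2 and 3. Each cko library was below each ctrl library, and the step between the genotypes was wider than the spread within either. The mean fell from 1782 ± 164 (SD, n = 2) to 1030.1 ± 129 CPM (SD, n = 3), a log2 fold change of -0.79 with a 95% confidence interval of -1.07 to -0.51 (edgeR, adjusted p = 0.00639), the smallest change among the genes that fell. *Slc1a2* (ENSMUSG00000005089, chromosome 2, 102658659 to 102790784, plus strand) stood at 631 and 646 CPM in ctrl and at 408, 265 and 264 CPM in cko libraries. The ctrl libraries agreed within 1.02-fold, whereas cko 1 stood between them and the other cko libraries. Its log2 fold change was -1.03 (95% confidence interval -1.46 to -0.60, adjusted p = 0.0118 in edgeR), with cko at 48.9% of the ctrl mean.

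*Glul* encodes glutamine synthetase, which turns the glutamate taken up into glutamine. *Glul* (ENSMUSG00000026473, chromosome 1, 153899944 to 153909723, plus strand) was measured at 839 and 877 CPM in ctrl and at 599.8, 365 and 375 CPM in cko libraries. As for *Slc1a2*, cko 1 stood between the ctrl libraries and the other cko libraries, and the genotypes did not overlap. It fell with a log2 fold change of -0.94 (95% confidence interval -1.42 to -0.46, adjusted p = 0.0228 in edgeR). An exon of the antisense gene *Gm13872* shares 189 bp with *Slc1a2*, and an exon of *Teddm2* shares 116 bp with *Glul*. These neighbours had at most 6 and 27 counts in a library, against 5739 or more for *Slc1a2* and 8156 or more for *Glul*. How strand was handled in counting is not given in the sources used here. How reads in the shared exons were assigned was not tested.

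*Gja1* and *Gjb6* encode the connexins from which astrocyte gap junctions are built. *Gja1* (ENSMUSG00000050953, chromosome 10, 56377330 to 56402513, plus strand) stood at 429.9 and 310.3 CPM in ctrl 1 and 3 and at 178, 60.9 and 62.7 CPM in cko 1, 2 and 3. The genotypes did not overlap, but cko 1 held 2.88 times the mean of cko 2 and 3. The mean fell from 370.1 ± 84.5 (SD, n = 2) to 101 ± 67.2 CPM (SD, n = 3), a log2 fold change of -1.88 with a wide 95% confidence interval of -2.93 to -0.84 (edgeR, adjusted p = 0.0298). *Gjb6* (ENSMUSG00000040055, chromosome 14, 57123303 to 57133611, minus strand) was the least abundant of the 9 genes, with 131 and 124 counts in ctrl and 38, 20 and 11 counts in cko libraries. In CPM these were 5.72 and 6.62 against 2.13, 0.857 and 0.506, again with cko 1 nearest to ctrl. *Gjb6* had the largest fold change of the 9 genes, -2.44 on the log2 scale (95% confidence interval -3.56 to -1.32, adjusted p = 0.0163 in edgeR). Without cko 1 the log2 fold changes were -3.17 for *Gjb6* and -2.59 for *Gja1*.

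*Atp1b2*, a beta subunit of the sodium pump found in glia, and *Slc4a4*, which carries sodium and bicarbonate together across the membrane, had the smallest adjusted p of the 9 genes, and in both each cko library was below each ctrl library. *Atp1b2* (ENSMUSG00000041329, chromosome 11, 69599736 to 69605942, minus strand) was counted at 1085 and 1118 CPM in ctrl and at 666, 532 and 538 CPM in cko libraries. The mean fell from 1101 ± 22.9 (SD, n = 2) to 579 ± 75.4 CPM (SD, n = 3), with a log2 fold change of -0.93 (95% confidence interval -1.19 to -0.67, adjusted p = 0.00305 in edgeR). *Slc4a4* (ENSMUSG00000060961, chromosome 5, 88886818 to 89239653, plus strand) stood at 579 and 662 CPM in ctrl and at 203, 128 and 136 CPM in cko libraries. It fell to 25.1% of the ctrl mean, a log2 fold change of -2.00 (95% confidence interval -2.44 to -1.55), with an adjusted p of 0.00174 in edgeR. These are the only members called lower in each of the fits listed for alternative settings, those that leave out a library included.

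*Kcnj10* encodes the inwardly rectifying channel by which glia take up potassium. *Kcnj10* (ENSMUSG00000044708, chromosome 1, 172341210 to 172374085, plus strand) stood at 131 and 132 CPM in ctrl and at 159.7, 139.8 and 135 CPM in cko libraries. Each cko library lay above both ctrl libraries, at 122%, 107% and 103% of the ctrl mean. The log2 fold change was 0.14 with a 95% confidence interval of -0.07 to 0.35 and did not pass the test (adjusted p = 0.328, unadjusted p = 0.165 in edgeR). The interval lay above the whole interval of each of the 7 genes that fell. *Aqp4*, the water channel of astrocyte endfeet (ENSMUSG00000024411, chromosome 18, 15389496 to 15410982, minus strand), was counted at 97.5 and 55.2 CPM in ctrl 1 and 3 and at 59.8, 27.3 and 27.0 CPM in cko 1, 2 and 3. The genotypes overlapped, since cko 1 was above ctrl 3, and the ctrl libraries themselves differed 1.77-fold. Its log2 fold change was -1.02 (95% confidence interval -1.89 to -0.14) and did not pass the correction (unadjusted p = 0.0287, adjusted p = 0.108 in edgeR). Without ctrl 3 it was -1.37 (edgeR, adjusted p = 0.025), without cko 1 -1.50 (adjusted p = 0.0255), and without ctrl 1 -0.56 (adjusted p = 0.33).

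**Figure D2:**
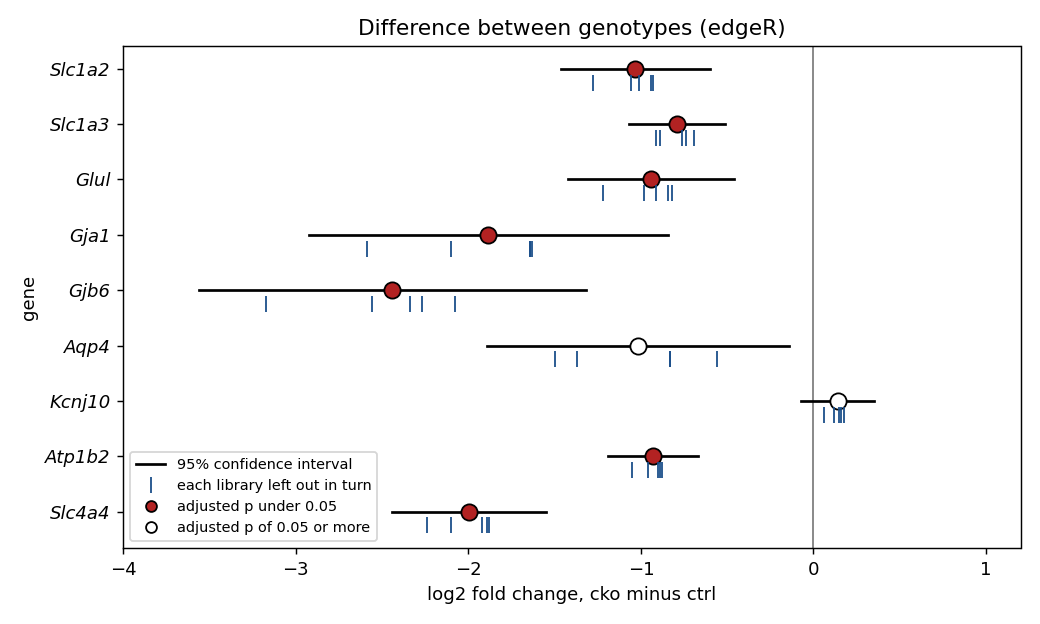
Log2 fold change of each gene, cko minus ctrl, with its 95% confidence interval from edgeR (black line), filled where the adjusted p was under 0.05, and the same value with each library left out in turn (blue ticks). The 7 filled points lie between -2.44 and -0.79, and *Kcnj10* is the only gene whose point is above 0.

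Every cko library lay below every ctrl library in 7 of the 9 genes, against 24.3% of all genes tested, and above in 1 gene, *Kcnj10*, against 25.4%. How far the cko libraries lay below differed between them. Library cko 1 was above cko 2 and cko 3 in all 9 genes, against 36.3% of all genes tested. It exceeded the mean of cko 2 and 3 most in *Gjb6* (3.12-fold), *Gja1* (2.88-fold) and *Aqp4* (2.20-fold), then in *Glul* (1.62-fold), *Slc1a2* (1.54-fold) and *Slc4a4* (1.54-fold), and least in *Atp1b2* (1.24-fold), *Slc1a3* (1.23-fold) and *Kcnj10* (1.16-fold). Libraries cko 2 and cko 3 differed by at most 1.06-fold in these genes, apart from *Gjb6* at 1.70-fold and few counts. Summed over the 9 genes, the levels were 5464 and 5704 CPM in ctrl 1 and 3, and 3454, 2489 and 2481 CPM in cko 1, 2 and 3. Without cko 1, 8 of the 9 genes were called lower, *Aqp4* among them, while the lower calls over all genes went from 1432 of 16710 to 907 of 16481 tested. Without cko 2 only *Atp1b2* and *Slc4a4* were called lower, and without cko 3 *Slc1a3*, *Atp1b2* and *Slc4a4*, out of 7 with all libraries. Lower calls over all genes dropped in the same fits, to 416 of 16284 without cko 2 and 457 of 16306 without cko 3. The fold changes of the genes no longer called moved less, on the log2 scale to -0.94 for *Slc1a2*, -0.76 for *Slc1a3*, -0.82 for *Glul*, -1.63 for *Gja1* and -2.27 for *Gjb6* without cko 2.

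**Figure D3:**
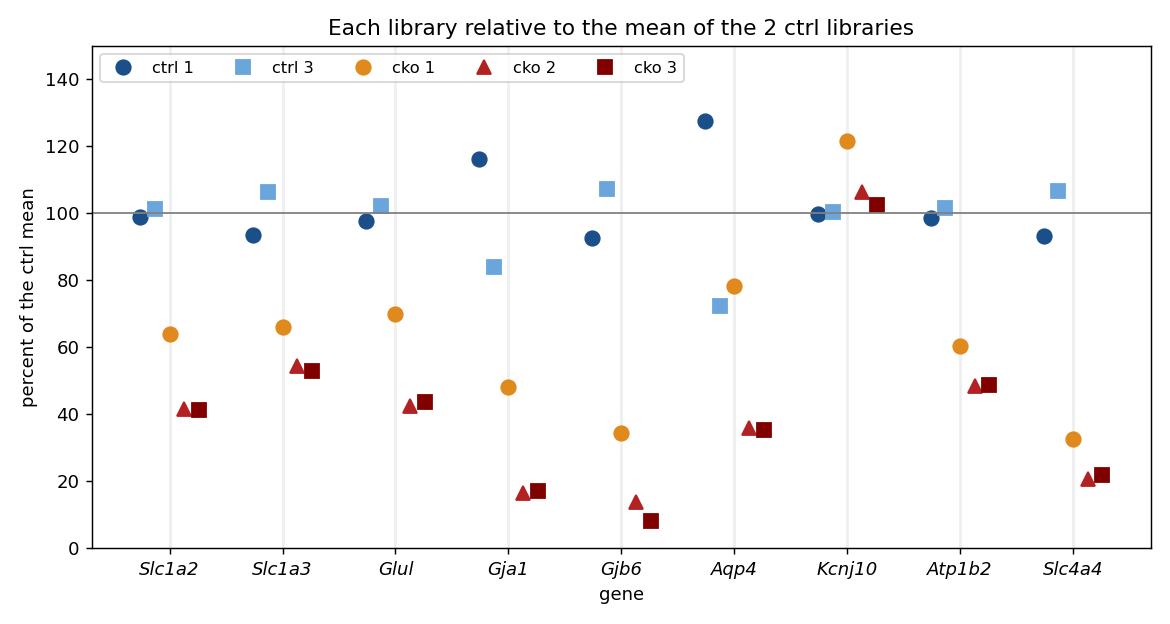
Level of each gene in each library as a percentage of the mean of ctrl libraries 1 and 3. In cko 2 and cko 3 *Gja1* was at 16.4% and 17.0% and *Gjb6* at 13.9% and 8.19% of the ctrl mean, cko 1 lay above both in every gene, and *Kcnj10* alone stayed above 100% in all cko libraries.

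Levels of different genes were compared per kb of merged exon length, in CPM per kb. In ctrl NSCs the order was *Atp1b2* (269.6), *Glul* (258), *Slc1a3* (209), *Slc4a4* (57.4), *Slc1a2* (48.6), *Gja1* (36.1), *Kcnj10* (24.3), *Aqp4* (12.3) and *Gjb6* (2.31). No neighbours in this order overlapped in their ctrl libraries, though *Atp1b2*, at 266 and 274, and *Glul*, at 252 and 264, came close. In cko NSCs *Kcnj10*, at 26.8, moved from the seventh to the fourth place, above *Slc1a2* (23.8), *Slc4a4* (14.4) and *Gja1* (9.80). There the libraries of 5 of the 8 pairs of neighbours overlapped, *Atp1b2* with *Glul*, *Glul* with *Slc1a3*, *Kcnj10* with *Slc1a2*, *Slc4a4* with *Gja1* and *Gja1* with *Aqp4*, so that their order was not resolved. The 2 glutamate transporters kept their order, with *Slc1a3* at 4.06 and 4.52 times *Slc1a2* per kb in ctrl and at 4.44, 5.61 and 5.50 times in cko libraries. *Gja1* was at 12.2 to 19.6 times *Gjb6* per kb in ctrl and at 18.5 to 32.4 times in cko libraries, ranges that overlap. The ratio of *Kcnj10* to *Aqp4* per kb, both genes of endfoot membranes, was 1.55 and 2.75 in ctrl and 3.08, 5.90 and 5.74 in cko libraries, without overlap.

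The profile of a gene over the 5 libraries was compared with that of 12733 genes by the root-mean-square difference of centred log2 values, as a description. *Mlc1*, which encodes a membrane protein of astrocyte endfeet, was nearest to both *Slc1a2* (0.0165) and *Glul* (0.0399). *Mlc1* was counted at 373 and 392 CPM in ctrl and at 249.8, 159.5 and 158 CPM in cko libraries. The calcium-binding astrocyte marker *S100b* was nearest to *Gjb6* (0.146). *Prdm16* was nearest to *Gja1* (0.254), *Tenm4* to *Slc4a4* (0.0750), *Crot* to *Atp1b2* (0.0426), *Gbp7* to *Slc1a3* (0.0381), *Ptgs2* to *Aqp4* (0.0982) and *Cdkal1* to *Kcnj10* (0.0117). Among the 9 genes themselves, *Slc1a2* and *Glul* were each other's nearest (0.0512), as were *Slc1a3* and *Atp1b2* (0.0850) and *Gjb6* and *Slc4a4* (0.264). *Kcnj10* was the farthest from any other (0.460).

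RefSeq promoters, from 250 bases before to 50 bases after a start site in GRCm38.p6, were matched by symbol for 7 of the 9 genes, in 8 entries. They are shown for the radial glia transporter, for both connexins, which had large changes, and for *Kcnj10*, which was not called. Capitals mark matches on either strand to the STAT motif TTCNNNGAA or the N-box CACNAG, a site class bound by HES proteins. The NFI core TTGGCA and the RBPJ core TGGGAA were searched too and had no match in these 4. No match overlapped another.
Slc1a3, chr15:8710758-8711057, minus strand: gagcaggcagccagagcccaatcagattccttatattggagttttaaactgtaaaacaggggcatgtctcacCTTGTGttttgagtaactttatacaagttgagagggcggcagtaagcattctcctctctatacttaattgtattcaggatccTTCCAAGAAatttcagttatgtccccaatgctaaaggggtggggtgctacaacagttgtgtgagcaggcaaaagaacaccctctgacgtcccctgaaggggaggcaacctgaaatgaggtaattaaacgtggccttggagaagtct
Gja1, chr10:56377050-56377349, plus strand: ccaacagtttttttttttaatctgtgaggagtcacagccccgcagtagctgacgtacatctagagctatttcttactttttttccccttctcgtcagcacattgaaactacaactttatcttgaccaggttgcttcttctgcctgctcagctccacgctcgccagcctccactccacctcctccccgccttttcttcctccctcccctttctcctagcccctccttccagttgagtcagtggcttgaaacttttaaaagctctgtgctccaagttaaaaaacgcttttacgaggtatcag
Gjb6, chr14:57133562-57133861, minus strand: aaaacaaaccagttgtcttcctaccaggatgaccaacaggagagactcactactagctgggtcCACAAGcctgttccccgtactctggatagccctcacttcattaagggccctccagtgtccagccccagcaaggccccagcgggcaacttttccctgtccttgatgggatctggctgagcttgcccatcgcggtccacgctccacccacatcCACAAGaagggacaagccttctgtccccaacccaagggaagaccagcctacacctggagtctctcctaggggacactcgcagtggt
Kcnj10, chr1:172340960-172341259, plus strand: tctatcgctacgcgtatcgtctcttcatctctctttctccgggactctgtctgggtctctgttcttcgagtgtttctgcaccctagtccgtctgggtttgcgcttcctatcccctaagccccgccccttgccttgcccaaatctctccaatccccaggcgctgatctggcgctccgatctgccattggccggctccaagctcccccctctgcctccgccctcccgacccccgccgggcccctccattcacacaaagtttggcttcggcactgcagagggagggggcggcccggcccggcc
The *Slc1a3* promoter held 1 STAT match and 1 N-box, the *Gjb6* promoter 2 N-boxes, and those of *Gja1* and *Kcnj10* none of the motifs. Over all 8 entries, N-boxes also occurred in *Glul* (1) and an RBPJ core in 1 of the 2 *Slc4a4* entries (1). Of 32851 RefSeq promoters of the same length, 42.5% held an N-box, 25.6% the RBPJ core, 14.1% the NFI core and 8.30% the STAT motif. The *Kcnj10* promoter had 21 CpG and 63.7% GC, against 8 and 47.7% in *Gja1*, 6 and 57.3% in *Gjb6* and 3 and 45.3% in *Slc1a3*, with medians of 7 and 52.7% over all promoters.

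Other genes of the same systems were read out beside the 9. Of 64 listed genes, 57 passed the filter, with a median log2 fold change of -0.33. Over all genes tested, edgeR called 8.57% lower and 7.86% higher in cko. By the same threshold it called 16 of the 57 lower and 5 higher, the higher calls near their share over all genes. Without cko 2 these counts were 5 and 2, and without cko 3 6 and 2, in fits where the calls over all genes dropped from 1432 lower and 1314 higher to 416 and 317 and to 457 and 336. In glutamate and glutamine handling, 2 of 11 tested genes fell and 2 rose. *Slc1a1*, a glutamate transporter better known from neurons, fell from 71.6 ± 6.14 (SD, n = 2) to 31.3 ± 6.98 CPM (SD, n = 3), a log2 fold change of -1.20 (edgeR, adjusted p = 0.00499). The cystine and glutamate exchanger *Slc7a11* fell with a log2 fold change of -1.46 (edgeR, adjusted p = 0.0216). The glutamine carriers *Slc38a1* and *Slc38a2* rose, with log2 fold changes of 0.62 (edgeR, adjusted p = 0.0046) and 0.59 (edgeR, adjusted p = 0.0204), opposite in sign to *Glul*. *Slc7a11* and *Slc38a2* were no longer called without cko 2 or without cko 3, nor *Slc38a2* without cko 1.

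None of the 7 other connexin, pannexin and junction genes tested fell at an adjusted p under 0.05 in edgeR or in DESeq2. At an unadjusted p under 0.05, 2 were lower in edgeR (*Gja5* and *Tjp1*, named after their values were seen) and 1 in DESeq2. *Gjd2*, known as the connexin of neuronal electrical synapses, rose from 11.2 ± 2.27 (SD, n = 2) to 30.4 ± 2.50 CPM (SD, n = 3), a log2 fold change of 1.44 (edgeR, adjusted p = 0.00234). The pannexin *Panx1* rose with a log2 fold change of 0.50 (edgeR, adjusted p = 0.0101), and was not called without cko 2 or cko 3. Among connexins, *Gja1* and *Gjb6* were called lower and *Gjd2* higher.

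Of 11 aquaporins and endfoot anchors, 7 fell and none rose in edgeR and in DESeq2, nor was any higher at an unadjusted p under 0.05, with a median log2 fold change of -0.51. *Aqp1* had 35 and 39 counts in ctrl and 8, 3 and 6 counts in cko libraries (log2 fold change -2.69, adjusted p = 0.0129 in edgeR), and was not called without cko 2 or cko 3. None of the 7 other potassium channel genes was called in either direction in edgeR, with 1 higher at an unadjusted p under 0.05, *Kcnk10*, named after its values were seen. DESeq2 called 1 higher. Among the other sodium pump subunits, 2 of 7 fell and 1 rose. *Atp1b1* fell with a log2 fold change of -0.54 (edgeR, adjusted p = 0.038), and was not called when any library but ctrl 3 was left out. The pump regulator *Fxyd6* rose with a log2 fold change of 0.97 (edgeR, adjusted p = 0.0207), and was not called when any cko library was left out.

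In bicarbonate, chloride and proton transport, only the carbonic anhydrase *Car2* of 8 genes was called, with a log2 fold change of -0.96 (edgeR, adjusted p = 0.00929, and 0.0571 without cko 2). Of 6 genes for the transport of GABA, glycine, urea, glucose and lactate, 4 fell. The glycine transporter *Slc6a9* stood at 133 and 205 CPM in ctrl and at 50.6, 37.3 and 38.9 CPM in cko libraries, a log2 fold change of -2.00 (edgeR, adjusted p = 0.00192). The astrocyte GABA transporter *Slc6a11* stood at 831 and 1222 CPM in ctrl and at 401, 251 and 241 CPM in cko libraries, a log2 fold change of -1.79 (edgeR, adjusted p = 0.00493). Both were lower in each cko library than in either ctrl library.

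**Figure D4:**
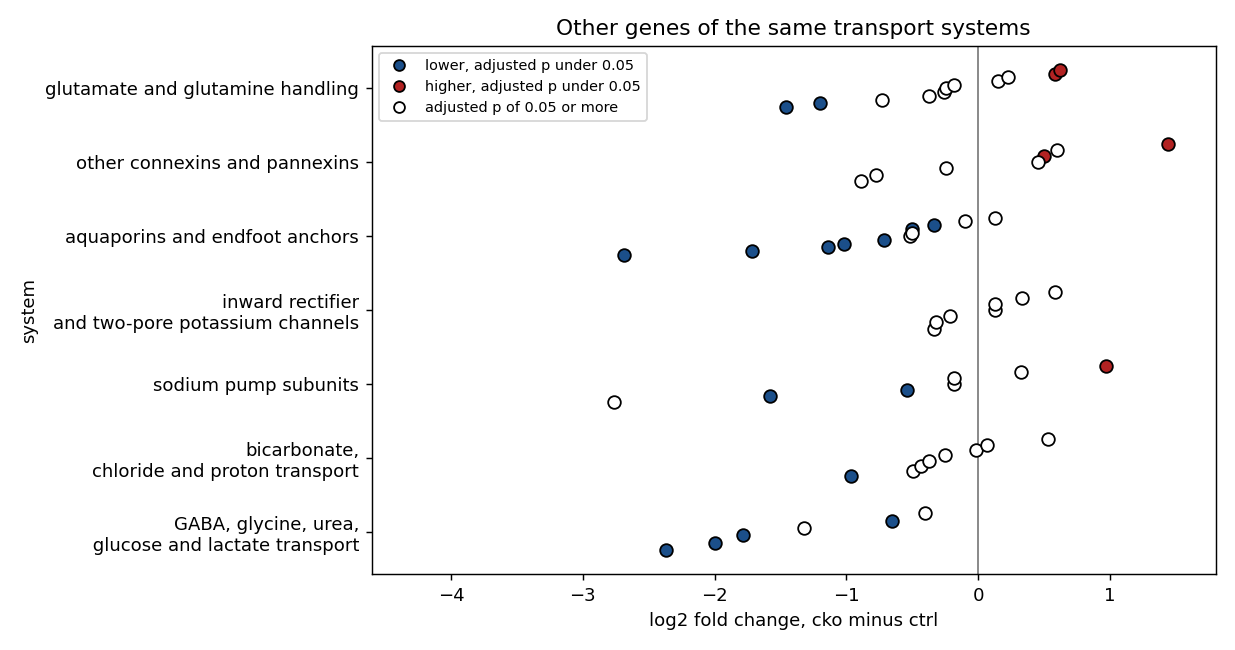
Log2 fold change, cko minus ctrl, of the 57 tested genes of the same transport systems, 1 point a gene, by system, blue where lower and red where higher at an adjusted p under 0.05 in edgeR. The aquaporins and endfoot anchors hold 7 blue points and no red point, and the other potassium channels none of either.

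Markers of the cell types that such a culture could hold were summed in each library. NSC and radial glia markers were present at 5078 and 6256 CPM in ctrl and 7208 to 7679 CPM in cko libraries, with 3 of 8 called higher by edgeR and none lower, nor any lower at an unadjusted p under 0.05 or in DESeq2. Astrocyte identity genes summed to 2211 and 3017 CPM in ctrl and 1494 to 1950.2 CPM in cko libraries, with 4 of 10 lower in edgeR and 5 in DESeq2, and none higher in either. At an unadjusted p under 0.05, 0 of the 10 were higher in edgeR and 2 in DESeq2. Much of the gap between the ctrl sums lay in *Gfap*, named after its values were seen. It stood at 1008 CPM in ctrl 1 and 178 CPM in ctrl 3, a 5.67-fold difference. With 298 CPM in cko 1, above ctrl 3, *Gfap* was not called (edgeR, adjusted p = 0.126). Oligodendrocyte lineage genes summed to 3924 and 4584 CPM against 3799 to 3936 CPM, with 7 of 12 lower and 2 higher. Proliferation genes summed to 669.6 and 746 CPM in ctrl and 1415, 1863 and 1777 CPM in cko 1, 2 and 3, with 6 of 6 higher, and cko 1 was the cko library nearest to ctrl in these too. Neuronal genes summed to 1133 and 1262 CPM against 1274 to 1305 CPM, with 1 of 7 tested lower and 2 higher. Microglial genes summed to at most 0.907 CPM, with *Cx3cr1* and *Tmem119* at 0 counts in all 5 libraries, and *Cdh5* of the endothelial list was at 0 as well. Endothelial and mural, meningeal fibroblast and ependymal lists summed to at most 7.40, 3.57 and 26.0 CPM, with no gene called by edgeR or DESeq2 and 1 meningeal gene lower at an unadjusted p under 0.05 in both. Fewer cells of a type and less RNA per cell cannot be told apart in these bulk libraries, and the part of the marker changes in the levels of the 9 genes was not tested.

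**Figure D5:**
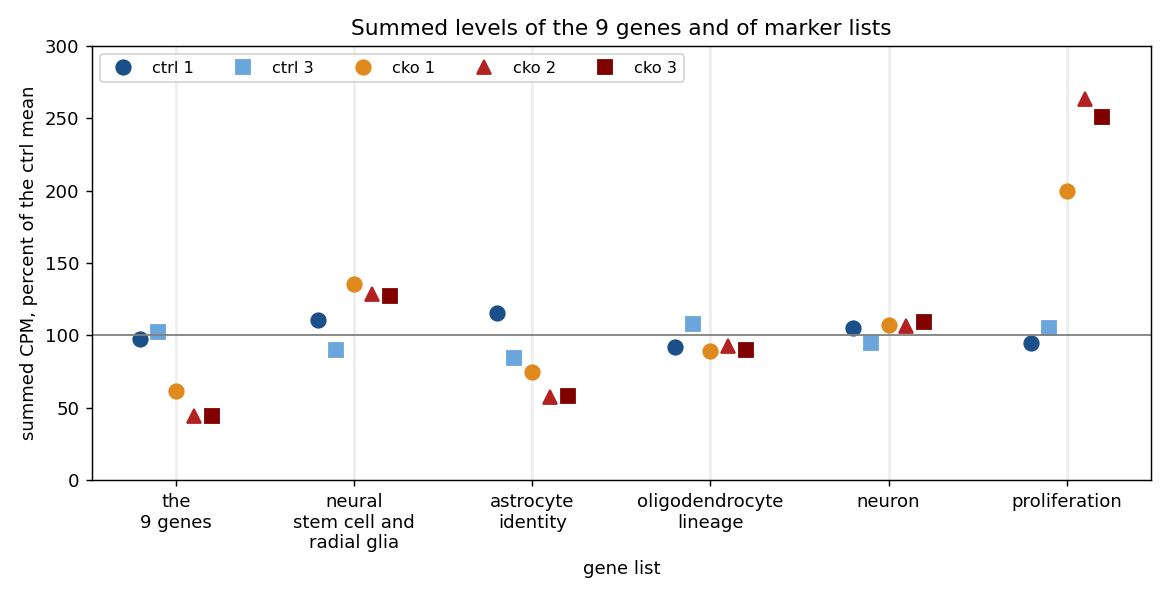
Summed CPM of the 9 genes and of 5 marker lists in each library, as a percentage of the mean of the ctrl libraries. The 9 genes are below 100% in all cko libraries and the proliferation list is above it in all, with cko 1 the cko library nearest to ctrl in both.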

How the data were processed

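The series lists RNA-seq of 3 ctrl and 3 cko samples of E14.5 NSCs. Per the study's methods, reads were checked with FastQC, filtered with NGSQC and aligned to mm10 with HISAT2, while the labels name GRCm39. The authors deposited raw counts per Ensembl gene, without normalization. The counting tool, annotation and strand setting are not given in the sources used here.

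Gene symbols, positions and merged exon lengths came from GENCODE M21 (GRCm38), which matched 31829 of 32493 gene IDs, and promoters from RefSeq (GRCm38.p6). The comparison of cko 1 to 3 with ctrl 1 and 3 used edgeR 4.0.16 (R 4.3.3), after its default low-count filter (filterByExpr) and TMM scaling, by quasi-likelihood F-tests with Benjamini-Hochberg adjustment over 16710 genes and a threshold of 0.05. Standard errors and 95% confidence intervals were approximated from the fold change and its F statistic. Profile distances used a pseudocount of 0.5 CPM and genes with at least 50 counts on average. The floor of 3 counts corresponds to 0.129 to 0.168 CPM and covers counting error only.

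The 9 genes and all lists were chosen with earlier results of these data known. Named were the 9 genes, per system up to 2 lower and 2 higher called genes with the smallest p and no overlap between genotypes, and the gene nearest in profile to each of the 9. Some genes that this rule chose are not reported here. Tested on simulated data for this comparison (16710 genes, 200 changed by 1.5 on the log2 scale), edgeR recovered 84.5% with 6.11% false calls among 180. DESeq2 1.42.0 recovered 78% with 8.24% false calls among 170. The simulation gave both genotypes the same spread, whereas here the ctrl libraries differed from each other more than the cko libraries did. Far more genes were also called here, so the simulated rates need not hold for the real comparison. Alternatives were the 6-column fit, the replicate block, DESeq2, other size factors and filters, the study's threshold of 0.9 and 0.01, and leaving out each library. Figures were drawn with matplotlib 3.10.9.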

Additional observations from a re-analysis of the deposited data

How the results depend on the processing

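Of the 9 genes, 7 were called lower, and 6 to 8 were with all 6 columns, DESeq2, other size factors or filters, the replicate block or the study's threshold. Leaving out a library gave 2 to 8, the lowest without cko 2 and 3 without cko 3. Over all genes, lower calls were 416 without cko 2, 457 without cko 3, 907 without cko 1, 1760 without ctrl 3 and 2062 without ctrl 1, against 1432 with all libraries. None was called higher in any of these fits. The median log2 fold change of the 9 genes lay between -1.28 and -0.88 when a library was left out. Of the 64 listed genes of the same systems, 57 were tested. Of these, 16 were called lower and 5 higher, against 8.57% and 7.86% of all genes tested. All 6 columns gave 25 and 9, no filter on low counts 25 and 9, and the study's threshold 2 higher. Leaving out a library gave 5 to 23 lower and 2 to 7 higher. With 1 ctrl library left, that library is assumed to vary like the cko libraries. None of the 9 genes, nor of the 14 genes of the same systems chosen by rule, changed its direction in any of these fits. The other genes named were not followed across these fits. For the 9 genes and the 14 genes of the same systems chosen by rule, the side of the threshold was kept in 240 of the alternative values, lost in 31 and gained in 4, all of *Aqp4*. The cause was not tested. *Aqp1* had no value where at least 10 counts were required in every library. Per the study, the cko and ctrl NSCs came from littermates, but which libraries share a litter is not given, and the main fit paired none. The replicate numbers shared by the genotypes are not stated to mark a litter or batch. Deviations of same-numbered libraries correlated with r of 0.143 for replicate 1 and 0.0507 for replicate 3 across 16710 genes, which are not independent replicates. With the replicate block, 8 of the 9 genes were called lower, the additional gene being *Aqp4* (-0.86, adjusted p = 0.00166 in edgeR). Over all genes, that fit called 1065 lower and 918 higher, against 1432 and 1314 without the block. As ctrl 2 was not used, cko 2 had no ctrl library in its block. The genotype difference in that fit thus rested on replicates 1 and 3 alone. Depth limits mainly *Gjb6* and *Aqp1*, with 11 and 3 counts in their lowest libraries.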

Other observations

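Some of the listed genes of the same systems differed more between the ctrl libraries than *Aqp4*, at 1.77-fold the widest of the 9 genes, and *Slc2a1*, *Slc14a1* and *Kcnk2* among them were chosen here after their values were seen. The glucose transporter *Slc2a1* stood at 40.3 CPM in ctrl 1 and 129 CPM in ctrl 3, a 3.21-fold difference, and at 16.4, 16.6 and 16.0 CPM in cko libraries, which agreed within 1.03-fold (log2 fold change -2.37, edgeR, adjusted p = 0.0103). The urea transporter *Slc14a1* stood at 8.95 and 3.09 CPM in ctrl and at 3.92, 1.59 and 1.88 CPM in cko libraries, again with cko 1 above ctrl 3, and did not pass the test (edgeR, adjusted p = 0.125). The leak channel *Kcnk2* stood at 135 and 63.5 CPM in ctrl and at 98.5, 67.6 and 71.5 CPM in cko libraries (edgeR, adjusted p = 0.48). *Kcnj16*, chosen likewise and whose product pairs with that of *Kcnj10*, stood at 39.2 and 61.7 CPM in ctrl and at 42.1, 41.3 and 37.8 CPM in cko libraries (log2 fold change -0.32, edgeR, adjusted p = 0.257).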
